A study of Saccharomyces cerevisiae with 17 samples.

Results

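The mitochondrial ribosome of budding yeast is described here through 66 nuclear genes, out of 6572 gene features in the deposited RNA counts. They are the features whose standard name is MRPL, MRPS, MRP or RSM followed by a number. The name matched 67 features, and MRPL32, which lies on chromosome III, was left out because genes of that chromosome were shifted as a block in the mutant strain and are given separately below. The 66 lie on 13 chromosomes. They hold 37 proteins of the large ribosomal subunit, 23 of which have a bacterial counterpart, and 28 of the small subunit, 17 of which have one. The last is MRP8, which shares the name but is not known as a ribosomal protein. The mitochondrial ribosome translates the few messages of mitochondrial DNA, most of them for core subunits of the respiratory chain and ATP synthase. Its RNAs and 1 protein (Var1) are made inside the organelle, while nearly all its proteins are encoded in the nucleus, made in the cytosol and imported. In yeast, fermentation on glucose represses respiratory genes, and galactose relieves much of that repression.

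RNA came from a strain labelled yDBK168, which carries brr6-1 marked with LEU2 and HIS3, and from its wild-type partner YPH399 (WT). Both are haploid MATα strains with the alleles ade2-10, leu2-1, lys2-801, Trp1-63 and ura3-52, grown at 30 °C in YEP. Brr6 is embedded in the membrane of the nuclear envelope, and the brr6-1 allele replaces an arginine of its putative zinc finger with lysine. The 4 groups, each of 2 biological replicates (A and B), are brr6-1 in glucose, WT in glucose, brr6-1 in galactose and WT in galactose. Glucose medium held 2% of the sugar, and galactose cultures grew in 2% raffinose with 0.04% sucrose before 2 h with 2% galactose. No RNA group had raffinose and sucrose without galactose. Galactose itself therefore cannot be told apart from the absence of glucose or from the other sugars. Below, a change with galactose means that between these 2 media. Each genotype is a single strain, so the allele cannot be told apart from other differences between the 2 strains.

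Libraries held 15059271 to 21637381 gene counts, and the scarcest member had at least 19 reads in each library. BRR6 itself had 98.5 and 103 CPM (a library-scaled count, set out below) in brr6-1 and 28.0 and 29.5 CPM in WT in glucose. RNA counted at BRR6 was thus more abundant in the mutant strain. Gene counts do not tell the alleles apart, and the reads were not checked for the mutation. As a check of the MATα label, 4 genes of alpha cells summed to 189 to 681 CPM. Of 5 genes of the opposite mating type, MFA1, MFA2, STE2 and BAR1 stayed at or below 8.07 CPM, whereas STE6 had 51.3 to 77.3 CPM. No feature of mitochondrial DNA was analysed here, so the presence of that DNA was not tested. None of the 66 genes is among the 30 genes listed at the 22 peaks of the FLAG-tagged Brr6 constructs.

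Below, CPM are counts scaled to the effective library size. A fold change is a log2 value ± its standard error (SE) from 1 edgeR fit to all 8 libraries. A gene is said to have risen, fallen or been called when its Benjamini-Hochberg adjusted p from edgeR's quasi-likelihood test was under 0.05 over all 6297 genes tested, which include all 66 members. All values are relative to the RNA pool of each library, and less RNA per cell cannot be told apart from a larger pool of other RNAs.

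The members differed widely in level. Per kilobase (kb) of gene, the mean over 8 libraries ran from 4.18 CPM per kb for MRPL4 to 270 CPM per kb for MRP51, a 64.6-fold span around a median of 98.1. The median was 110 CPM per kb for the small subunit and 79.1 for the large one, against 47.6 for the 5757 tested genes with a known length. Cytosolic ribosomal protein genes had a median of 473 CPM per kb and nuclear genes of the respiratory chain and ATP synthase one of 213.

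The most abundant were MRP51, a small subunit protein needed for translation of cytochrome oxidase messages, with 187 CPM per kb in brr6-1 and 287 in WT in glucose, MRPS12 of the decoding centre (250 as the mean of 8 libraries) and MRPL10 of the large subunit (239). At the low end, MRPL4, which sits at the exit of the peptide tunnel, had 3.16 and 3.53 CPM in brr6-1 and 1.98 and 2.58 CPM in WT in glucose. MRP49 of the large subunit (5.06 CPM per kb) and MRP17 of the small one (9.05) stood next to it. Proteins that enter 1 particle in equal number were thus encoded by transcripts of very different abundance, and 9 members averaged under 10 CPM.

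**Figure D1:**
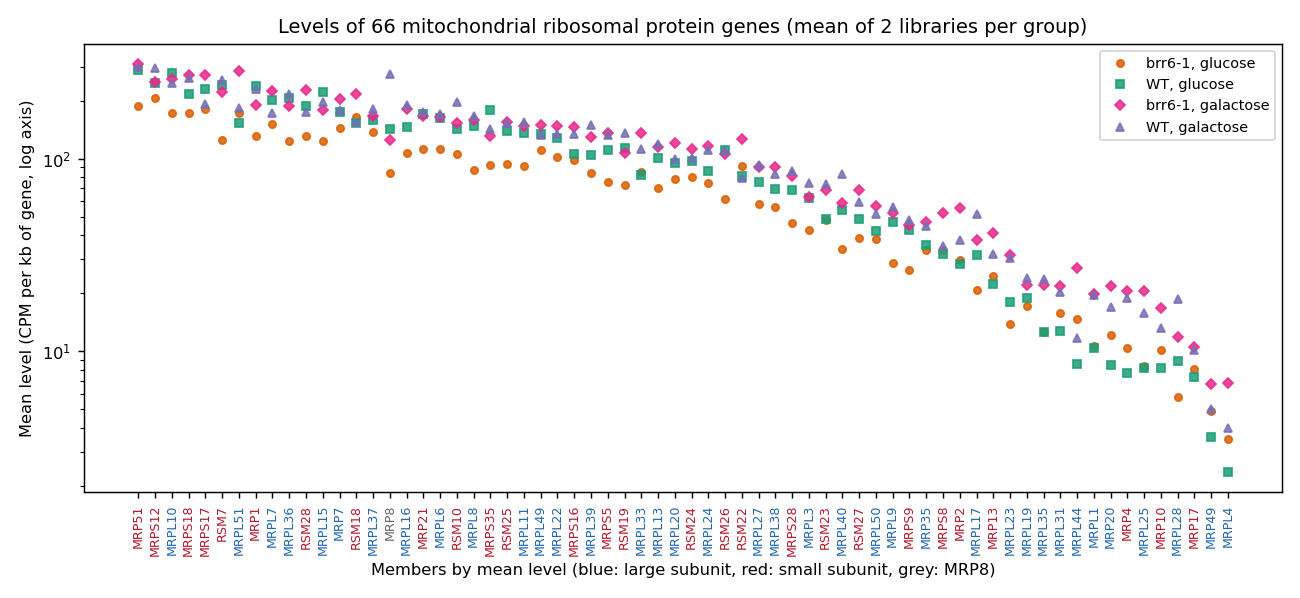
Mean level of each of the 66 members in CPM per kb of gene (log axis) in brr6-1 and WT in each medium (2 libraries per group), ordered by the mean over all 8 libraries. The order runs from MRP51 at 270 to MRPL4 at 4.18 CPM per kb, and brr6-1 in glucose has the lowest mean of the 4 groups for 48 of the 66.

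In glucose, 27 of the 66 members were lower in brr6-1 than in WT and 2 were higher. Over all genes tested 36.2% were called, 19.5% lower and 16.7% higher. All brr6-1 libraries lay below WT for 41 members and above it for 6, against 36.8% and 38.3% of all genes. The median of the members was -0.32, against 0.03 over all genes. Both subunits took part: 13 of 28 small subunit genes fell and none rose, and 13 of 37 large subunit genes fell and 2 rose, with MRP8 the remaining faller. Proteins with a bacterial counterpart and those found only in mitochondria gave like counts, with 17 of 40 and 9 of 24 falling. Summed over the members, brr6-1 had 3254 and 3915 CPM, against 4876 and 4992 CPM in WT, so the groups did not overlap although the 2 brr6-1 libraries differed from each other.

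The largest falls were in the small subunit. RSM7 (YJR113C, chromosome X, 638232 to 638975), the counterpart of bacterial uS7 in the head of the subunit, had 94.5 and 91.6 CPM in brr6-1, against 183 and 173 CPM in WT. That is a change of -0.94 ± 0.16 (adjusted p = 0.00381), with no overlap between the strains. MRPS35 (YGR165W, chromosome VII, 829116 to 830153), a mitochondria-specific protein, had 91.2 and 102 CPM in brr6-1, against 180 and 189 CPM in WT. Its change was -0.93 ± 0.13 (adjusted p = 0.00161).

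MRP1 and RSM26 resemble superoxide dismutase in sequence and both belong to the small subunit. MRP1 had 106 and 148 CPM in brr6-1, against 226 and 235 CPM in WT, a change of -0.86 ± 0.16 (adjusted p = 0.00451). RSM26 had 43.3 and 55.3 CPM in brr6-1, against 85.8 and 90.9 CPM in WT, a change of -0.84 ± 0.14 (adjusted p = 0.00362). Both genes were below WT in each brr6-1 library.

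In the large subunit MRPL15, a mitochondria-specific protein with a ribonuclease III fold, fell most. It had 86.2 and 102 CPM in brr6-1, against 159 and 179 CPM in WT, a change of -0.84 ± 0.15 (adjusted p = 0.00424). RSM7, MRPS35, MRP1, RSM26 and MRPL15 passed the test under every alternative and with any 1 library left out. MRPL8, the counterpart of bL17, fell by 0.75 on the log2 scale ± 0.16 and MRPL36, the counterpart of bL31, by 0.74 ± 0.14. MRPL8 did not pass without replicate A or B of WT in glucose or replicate A of brr6-1 in glucose (adjusted p = 0.0608, 0.0526 and 0.0538), and MRPL36 did not without WT replicate B (0.0505).

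Only MRPL44 and MRP20 were higher in brr6-1 in glucose, both of the large subunit and both scarce. MRPL44 (YMR225C, chromosome XIII, 720960 to 721403) had 6.58 and 6.50 CPM in brr6-1, against 3.70 and 3.89 CPM in WT, a change of 0.78 ± 0.20 (adjusted p = 0.0157). MRP20, the counterpart of uL23 beside the peptide exit, had 9.74 and 9.59 CPM in brr6-1, against 6.89 and 6.58 CPM in WT, a change of 0.52 ± 0.17 (adjusted p = 0.0367). By DESeq2's Wald test MRP20 was not called (adjusted p = 0.0921). With cyclic loess in limma-voom the changes of MRPL44 and MRP20 were 0.32 and 0.24, and both calls were lost (adjusted p = 0.295 and 0.347). Neither was called without replicate A of WT in glucose (0.119 and 0.167), WT replicate B (0.101 and 0.227) or brr6-1 replicate A (0.054 and 0.104), and MRP20 not without brr6-1 replicate B (0.0713).

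Direction in glucose went with abundance. Of 43 members averaging at least 30 CPM, 25 fell and none rose, while of 23 members below that level 2 fell and 2 rose. All genes tested divided in the same manner: of those at 30 CPM or more 30.5% fell and 11.1% rose, and of those below it 3.38% fell and 24.9% rose. The share of falling members was 58.1% in the upper class and 8.70% in the lower class. The level of 30 CPM was chosen with earlier results known, and the part of abundance in the fall was not tested.

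The count in glucose depended on the scaling and on single libraries. With library totals alone, which move the median of all genes to 0.36, 9 members were higher and 7 lower, and with cyclic loess in limma-voom 0 were higher and 22 lower. The number lower was 8 and 9 without WT replicate A or B, 11 without brr6-1 replicate A and 35 without brr6-1 replicate B, and the number higher was 0, 0, 0 and 1.

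**Figure D2:**
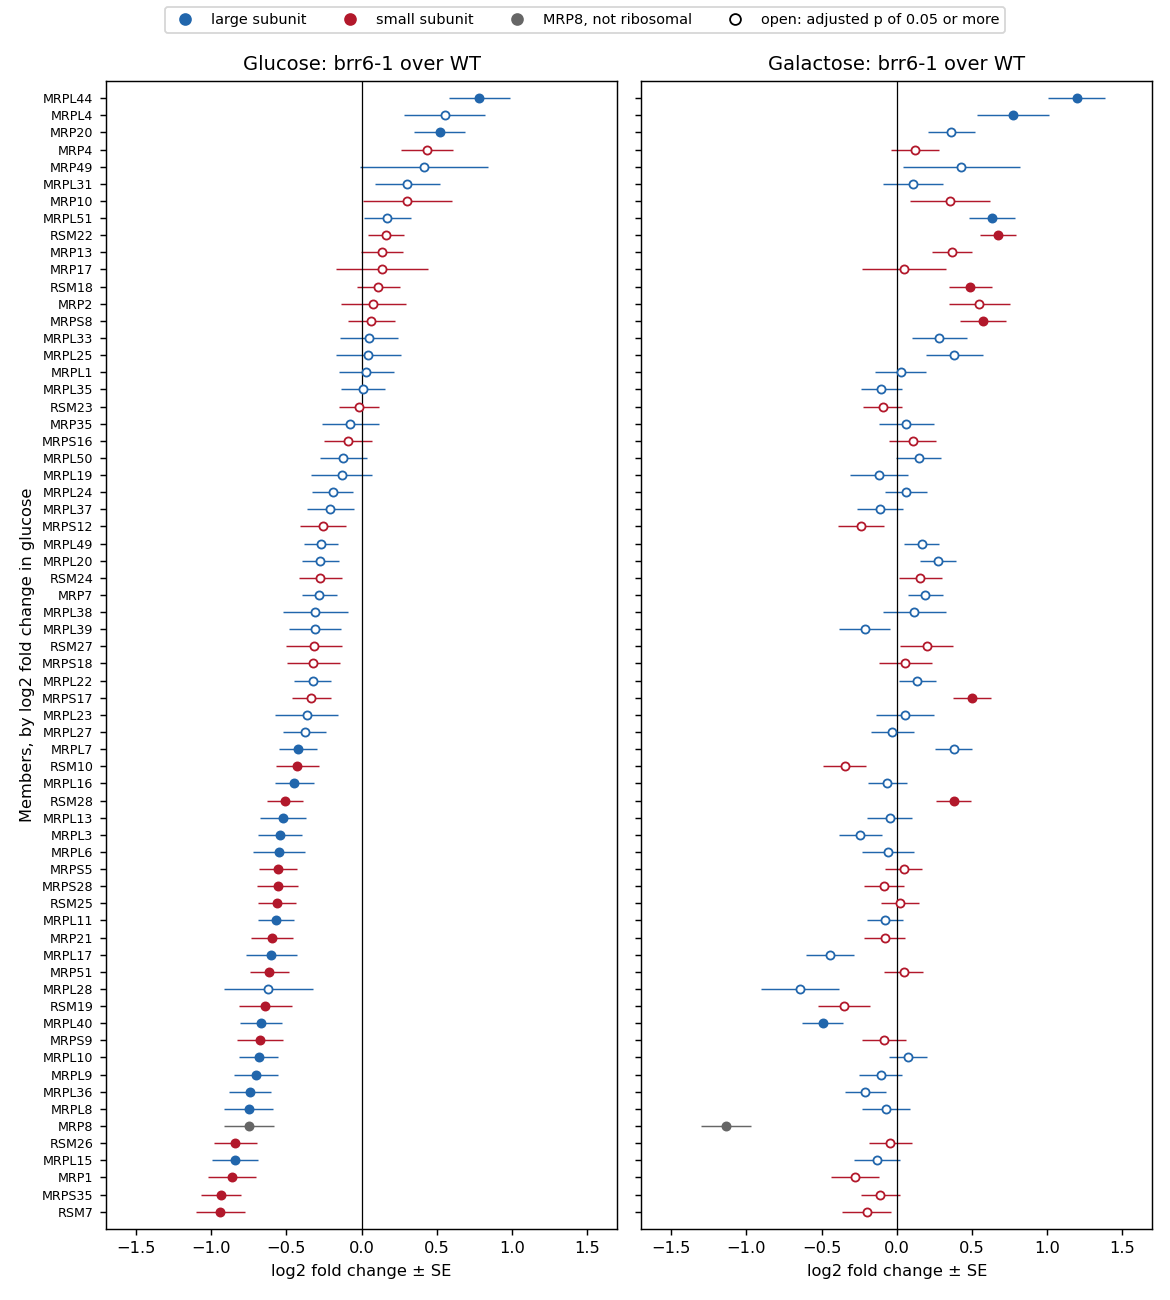
Log2 fold change of brr6-1 over WT (± SE, 2 libraries per group) for the 66 members in glucose (left) and galactose (right), in the order of the glucose values. Filled points passed the test: 27 lie left of 0 and 2 right of it in glucose, against 2 and 8 in galactose.

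In galactose the members of the 2 strains were close. Higher in brr6-1 were 8 of 66 and lower 2, against 8.29% and 14.3% of all genes (22.6% in all), and the median was 0.05, against 0.01 over all genes. The brr6-1 libraries lay above WT for 21 members and below for 16, against 32.0% and 34.0% of all genes. The summed level was 5665 and 5369 CPM in brr6-1 and 5204 and 5582 CPM in WT, which overlap. With library totals alone the counts were 16 and 1, and with cyclic loess 10 and 1. Leaving out replicate B of WT in galactose or replicate A or B of brr6-1 in galactose left 2, 2 and 3 higher, and leaving out replicate A or B of WT in glucose left 3 in each case. The number lower was 4 without replicate A of either WT in galactose or brr6-1 in glucose, and 1 without replicate B of WT in galactose or either library of brr6-1 in galactose.

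MRPL44 again stood highest, with 13.2 and 10.7 CPM in brr6-1 and 5.21 CPM in each WT library, a change of 1.20 ± 0.19 (adjusted p = 0.00188). RSM22 (YKL155C), a methyltransferase-like protein of the small subunit, had 248 and 231 CPM in brr6-1, against 160 and 140 CPM in WT, a change of 0.67 ± 0.12 (adjusted p = 0.004). MRPL44 and RSM22 were called under every alternative.

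The other 6 risers were MRPL4 (0.77 ± 0.24), MRPL51 (0.63 ± 0.15), MRPS8 (0.57 ± 0.15), MRPS17 (0.50 ± 0.13), RSM18 (0.49 ± 0.14) and RSM28 (0.38 ± 0.12). MRPS8, MRPS17 and RSM18 have bacterial counterparts in the small subunit, while RSM28 is specific to mitochondria. Their brr6-1 libraries lay above both WT libraries. Each lost its call when replicate B of WT in galactose was left out (adjusted p = 0.122, 0.105, 0.0913, 0.0791, 0.0989 and 0.0769) and when replicate A of brr6-1 in galactose was (0.138, 0.125, 0.206, 0.159, 0.235 and 0.246). All but MRPL51 also lost it without either glucose library of WT, all but MRPS8 without replicate B of brr6-1 in galactose, and MRPS8, RSM18 and RSM28 without replicate A of WT in galactose (0.0519 to 0.22). Reads of MRPL51 may include some of YPR099C, an annotated feature that overlaps it, since no source used here gives the strand setting of the counting.

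MRP8 and MRPL40 were lower in brr6-1 in both media. With library totals alone neither was called in glucose (-0.43 and -0.34, adjusted p = 0.0582 and 0.0782). MRPL40 in galactose was called neither with library totals alone (-0.25, adjusted p = 0.187) nor with cyclic loess in limma-voom (-0.37, adjusted p = 0.0579). MRP8 (YKL142W, chromosome XI, 178515 to 179174) had 49.8 and 61.9 CPM in brr6-1, against 99.7 and 88.5 CPM in WT, in glucose, and 72.7 and 92.6 CPM in brr6-1, against 164 and 200 CPM in WT, in galactose. Its changes were -0.75 ± 0.17 (adjusted p = 0.00878) and -1.14 ± 0.17 (adjusted p = 0.00121). Without replicate A of WT or of brr6-1 in glucose the first was not called (0.0682 and 0.0612). MRPL40, the counterpart of uL24, had 29.4 and 31.2 CPM in brr6-1, against 53.5 and 42.8 CPM in WT, in glucose, a change of -0.67 ± 0.14, and 53.3 and 52.4 CPM in brr6-1, against 70.2 and 78.5 CPM in WT, in galactose, a change of -0.49 ± 0.14. MRPL40 had an adjusted p of 0.0266 in galactose, and 0.13, 0.134 and 0.113 without WT replicate B, brr6-1 replicate A or brr6-1 replicate B. In glucose it was 0.00708, and 0.0686 without WT replicate A. With galactose MRP8 rose by 0.56 ± 0.17 in brr6-1 and by 0.95 ± 0.17 in WT, and the rise in brr6-1 was lost without any 1 library other than replicate A of WT in galactose or replicate B of brr6-1 in glucose (adjusted p = 0.0507 to 0.303).

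How far the brr6-1 effect differed between media (galactose minus glucose) was tested in the same fit. It was positive for 57 of 66 members, with a median of 0.42 against -0.05 over all genes. It was also positive for 122 of 137 cytosolic ribosomal protein genes (median 0.34), none of them called. The same held for 32 of 39 genes of the respiratory chain and ATP synthase (median 0.44), with 4 called higher and 1 lower. At 30 CPM or more the median was 0.48 for members and 0.08 for all genes, and below it 0.14 and -0.30. The call was met by 6 members, all in the positive direction, against 1.65% of all genes in that direction and 3.94% in the other (5.59% in all). They were RSM28, MRPS17, MRPS35 and RSM26 of the small subunit and MRPL7 and MRPL10 of the large one.

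RSM28 (YDR494W, chromosome IV, 1436930 to 1438015), a small subunit protein that yeast can grow without, had the largest difference. It had 135 and 151 CPM in brr6-1, against 203 and 205 CPM in WT, in glucose. In galactose it had 258 and 236 CPM in brr6-1, against 183 and 198 CPM in WT. The strain order thus turned round between media. The changes were -0.51 ± 0.12 in glucose (adjusted p = 0.0104) and 0.38 ± 0.12 in galactose (adjusted p = 0.0444). Their difference was 0.89 ± 0.17 (adjusted p = 0.0182). The change in glucose was -0.18 with library totals alone and -0.32 with cyclic loess in limma-voom, neither called (adjusted p = 0.231 and 0.0515). The change in galactose was not called with DESeq2 size factors (adjusted p = 0.0526) or with only the 4 libraries compared (0.0911).

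MRPS17, the counterpart of uS17, also turned round in its values. It had 117 and 142 CPM in brr6-1, against 158 and 169 CPM in WT, in glucose, where the adjusted p was 0.0638. In galactose it had 204 and 184 CPM in brr6-1, against 137 CPM in both WT libraries. The difference was 0.83 ± 0.18 (adjusted p = 0.0333). MRPL7, the counterpart of uL5 in the central protuberance, had 128 and 137 CPM in brr6-1, against 172 and 183 CPM in WT, in glucose, and 209 and 185 CPM in brr6-1, against 142 and 162 CPM in WT, in galactose. Its difference was 0.80 ± 0.18 (adjusted p = 0.0336), and its change in galactose alone, 0.38 ± 0.12, did not pass (adjusted p = 0.0518). The fall of MRPL7 in glucose was -0.10 with library totals alone and -0.24 with cyclic loess in limma-voom. Neither was called (adjusted p = 0.519 and 0.126).

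For MRPS35, RSM26 and MRPL10 the strains differed in glucose and overlapped in galactose. MRPS35 had 150 and 123 CPM in brr6-1, against 140 and 155 CPM in WT, in galactose, and its difference was 0.82 ± 0.19 (adjusted p = 0.0362). RSM26 had 85.4 and 83.7 CPM in brr6-1, against 80.0 and 94.3 CPM in WT, in galactose, with a difference of 0.80 ± 0.20 (adjusted p = 0.0489). MRPL10 had 156 and 180 CPM in brr6-1, against 254 and 285 CPM in WT, in glucose, and 246 and 258 CPM in brr6-1, against 226 and 252 CPM in WT, in galactose, with a difference of 0.76 ± 0.18 (adjusted p = 0.0433).

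With 2 libraries per group this test was fragile. RSM26 was not called with DESeq2 size factors, library totals alone or no filter (adjusted p = 0.0555, 0.0638 and 0.0523). MRPS17 and MRPL10 were not called with library totals alone (0.0504 each) or with cyclic loess in limma-voom (0.0510 and 0.0669). The number called was 0 without replicate A of WT in glucose, WT replicate B in glucose or replicate A of brr6-1 in galactose, 1 without replicate A of brr6-1 in glucose or of WT in galactose, and 2 without replicate B of brr6-1 in galactose. It was 12 without replicate B of brr6-1 in glucose and 11 without replicate B of WT in galactose. RSM28 was called in all but the settings that left 0, where its adjusted p was 0.121, 0.137 and 0.102. Its fall in glucose was in turn lost without replicate A or B of WT or replicate A of brr6-1 in glucose (0.0634, 0.0697 and 0.0615), and that of MRPL7 without the same libraries (0.0824, 0.125 and 0.113).

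**Figure D3:**
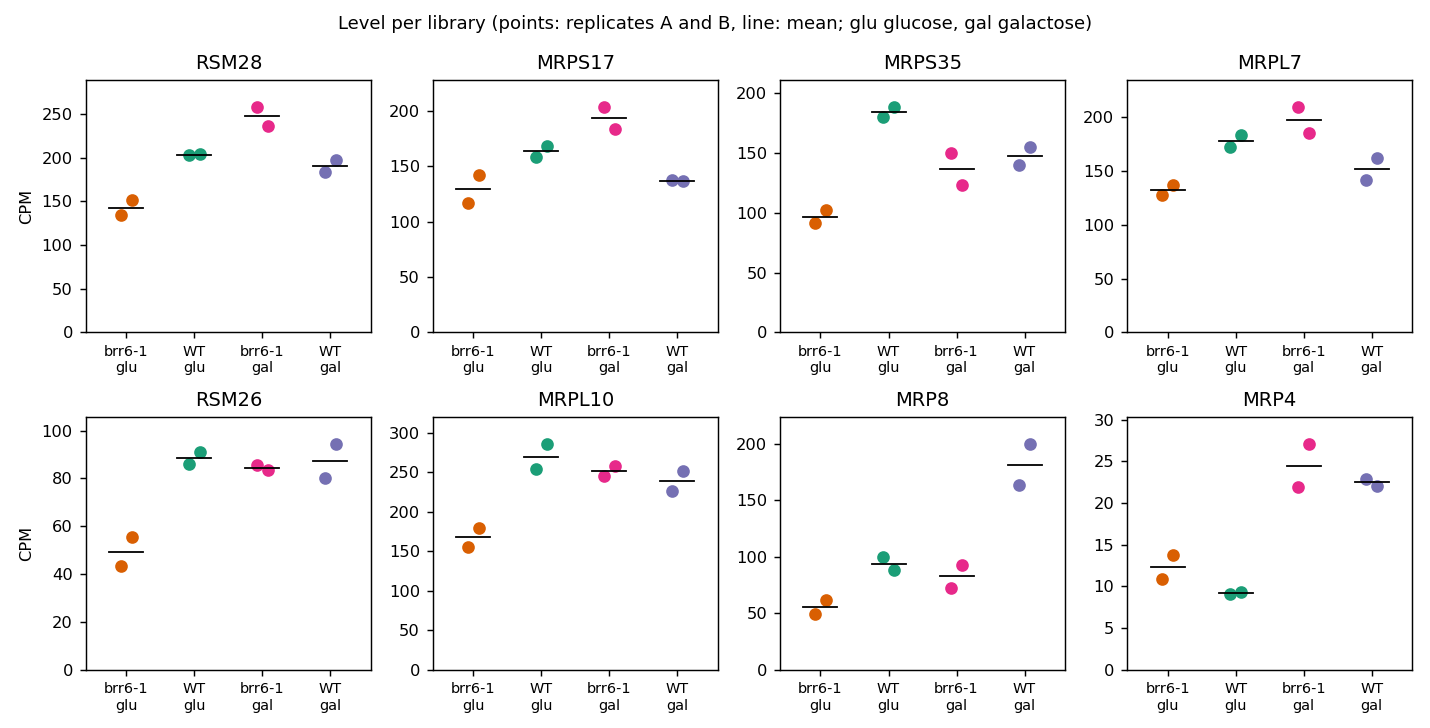
Level in CPM of each library (points) and mean (line) for the 6 members whose brr6-1 effect differed between media, for MRP8 and for MRP4, with brr6-1 left of WT in each medium and axes from 0. RSM28, MRPS17 and MRPL7 are below WT in glucose and above WT in galactose, whereas MRP8 is below WT in both.

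Galactose against glucose was then compared within each strain, which uses separate libraries for the 2 strains. In brr6-1, 54 of 66 members were higher in galactose and none was lower, against 8.75% higher and 7.26% lower among all genes (16.0% in all). Galactose libraries lay above glucose for 62 members and below for 0, against 31.9% and 25.7% of all genes. The fold change was positive for all 66, with a median of 0.63 against 0.04 over all genes and a range of 0.26 to 1.29. In WT 18 of 66 (27.3%) were higher and none lower, against 24.3% and 20.5% of all genes (44.8% in all). In WT the share higher was thus near that of all genes, and the shares lower and in all were below it. The median there was 0.26 against 0.10, and the galactose libraries lay above for 45 members and below for 5, against 41.2% and 34.7% of all genes. Summed levels were 5665 and 5369 CPM in galactose, against 3254 and 3915 CPM in glucose, in brr6-1. In WT they were 5204 and 5582 CPM in galactose, against 4876 and 4992 CPM in glucose. Neither pair of groups overlapped.

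Both subunits rose with galactose in brr6-1, with 30 of 37 large subunit and 23 of 28 small subunit genes called. In WT 13 large subunit and 4 small subunit genes were called, and MRP8 was called in both strains. Across the 66, 17 rose in both strains, 37 in brr6-1 alone and MRPL31 in WT alone. A call in 1 strain does not show a difference between strains, and that difference, the same quantity as the difference between media above, was called for those 6 genes. The glucose libraries of brr6-1 enter both this comparison and that of the strains in glucose, so a low level there moves both.

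The genes that rose most with galactose were mostly scarce ones. In WT the members under 30 CPM had a median of 0.52, as had all genes under 30 CPM. In brr6-1 these medians were 0.82 and 0.22. With cyclic loess the WT rises of MRPL25, MRPL1, MRPL23 and MRPL28 were 0.42, 0.44, 0.27 and 0.48, and none of these was called. It kept 10 of the 18 calls in WT and 46 of the 54 in brr6-1, where that of MRPL28 was also lost. MRP4 (YHL004W, chromosome VIII, 99219 to 100403), the counterpart of uS2, had 21.9 and 27.0 CPM in galactose, against 10.9 and 13.8 CPM in glucose, in brr6-1. In WT it had 22.8 and 22.1 CPM in galactose, against 9.07 and 9.27 CPM in glucose. Its changes were 0.98 ± 0.17 in brr6-1 (adjusted p = 0.00271) and 1.29 ± 0.17 in WT (adjusted p = 0.000299). It overlaps the annotated feature YHL005C, whose reads cannot be told apart if the counting ignored strand.

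MRPL25, a mitochondria-specific protein of the large subunit, had 10.2 and 9.22 CPM in galactose, against 4.34 and 3.64 CPM in glucose, in brr6-1, a change of 1.29 ± 0.20 (adjusted p = 0.00179). In WT it had 7.93 and 6.96 CPM in galactose, against 3.89 and 3.83 CPM in glucose, a change of 0.95 ± 0.21 (adjusted p = 0.00429, and 0.0527 without WT replicate B in glucose). MRPL1 of the stalk where spent tRNA leaves had 17.4 and 16.8 CPM in galactose, against 7.96 and 10.3 CPM in glucose, in brr6-1, and 15.2 and 18.4 CPM in galactose, against 8.43 and 9.44 CPM in glucose, in WT. The change was 0.90 ± 0.18 in brr6-1 and 0.91 ± 0.18 in WT. MRPL35, specific to mitochondria, changed by 0.82 ± 0.14 in brr6-1 and 0.93 ± 0.14 in WT, and MRP20 by 0.84 ± 0.16 and 1.00 ± 0.17. The values of both strains lay within 1 SE of each other for MRPL1, MRPL35 and MRP20. MRP20 missed the threshold in brr6-1 without replicate A of brr6-1 in galactose (0.0646).

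MRPL23, the counterpart of uL13, had 16.4 and 14.7 CPM in galactose, against 5.86 and 7.85 CPM in glucose, in brr6-1, a change of 1.17 ± 0.20 (adjusted p = 0.00314). In WT it changed by 0.75 ± 0.20 (adjusted p = 0.0116), and was not called without WT replicate A in glucose (0.152), WT replicate B in glucose (0.0588) or WT replicate A in galactose (0.0816). MRPL28 had the fewest reads of these genes, with 4.93 and 5.59 CPM in galactose, against 2.83 and 2.30 CPM in glucose, in brr6-1. Its change was 1.04 ± 0.29 in brr6-1 and 1.06 ± 0.27 in WT. It lost the call in brr6-1 without any 1 of the 4 brr6-1 or 2 WT glucose libraries (adjusted p = 0.0655 to 0.167), and in WT without either WT glucose library or WT replicate B in galactose (0.0519 to 0.101).

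The calls were also counted by abundance. Of the 43 members at 30 CPM or more, 38 rose in brr6-1 and 7 in WT. Among the 23 below it 16 rose in brr6-1 and 11 in WT. Over all genes of at least 30 CPM 9.21% rose in brr6-1 and 19.5% in WT, and of those below 30 CPM 8.06% and 31.4%. The difference itself was called for 6 of the 43 and 0 of the 23, so these counts by strain do not show that the strains differ for the other members.

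These counts moved with single libraries. In brr6-1, 32 members rose without replicate A or B of WT in glucose (32 each), 23 without replicate A of brr6-1 in glucose, 19 and 33 without replicate A or B of brr6-1 in galactose, and 35 when only the 4 libraries compared were fitted. In WT, 8 and 7 rose without WT replicate A or B in glucose, and 12 and 11 without WT replicate A or B in galactose, the last with 2 falling. Of the 54 genes called in brr6-1, 19 were also called in the setting that left fewest, and in no setting that left out a library did a member fall in brr6-1. With library totals alone, which move the median of all genes to 0.40 in WT and 0.25 in brr6-1, 60 rose in brr6-1 and 46 in WT.

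**Figure D4:**
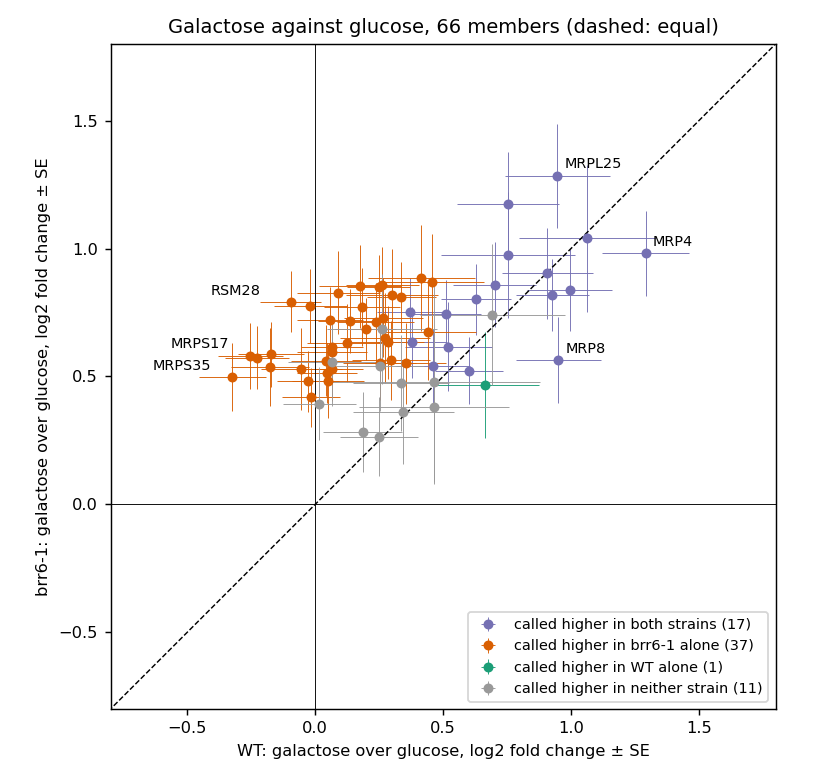
Log2 fold change of galactose over glucose (± SE) in brr6-1 (vertical) and WT (horizontal) for the 66 members, 2 libraries per group. All 66 lie above 0 in brr6-1, 10 lie left of 0 in WT, and the 6 genes called for the difference are among those left of 0 and above the dashed line of equal change.

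Called in none of the 4 comparisons were 8 members: MRP10, MRP17, MRP35, MRP49, MRPL19, MRPL37, MRPL38 and MRPS12. The most abundant of them was MRPS12, with 79.8 and 112 CPM in brr6-1, against 117 and 112 CPM in WT, in glucose. In galactose it had 122 and 108 CPM in brr6-1, against 137 and 135 CPM in WT. Its changes between strains were -0.26 ± 0.15 in glucose and -0.24 ± 0.15 in galactose. MRPL37 and MRPL38 changed with galactose in brr6-1 by 0.28 ± 0.16 and 0.68 ± 0.22, which did not pass (adjusted p = 0.268 and 0.0576). The SE of MRP49, MRP17 and MRP10, all scarce, was 0.26 to 0.42 in the comparisons of 2 groups, so changes of the size of the members' median could not be detected in them.

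Another 13 genes tested, MRPL32 and those that the name rule does not reach, also encode proteins of the mitochondrial ribosome. In brr6-1 in glucose 3 of them rose and 3 fell, against 16.7% and 19.5% of all genes. In galactose 3 rose, against 8.29% of all genes. The risers in both media were EHD3 and, on chromosome III, MRPL32 and IMG2, whose chromosome was shifted as given below. With galactose 9 rose in brr6-1 and 8 in WT, against 8.75% and 24.3% of all genes. NAM9, the counterpart of uS4, had 196 and 190 CPM in brr6-1, against 263 and 256 CPM in WT, in glucose, and 312 and 269 CPM in brr6-1, against 229 CPM in both WT libraries, in galactose. Its brr6-1 effect differed between media by 0.77 ± 0.17, which was called, but not without replicate A or B of WT in glucose or replicate A of WT or brr6-1 in galactose (adjusted p = 0.151, 0.169, 0.0572 and 0.149). MNP1, the counterpart of bL12, fell by 0.75 on the log2 scale ± 0.17 in brr6-1 in glucose, with 134 and 195 CPM in brr6-1, against 266 and 286 CPM in WT. MHR1, which also acts in recombination of mitochondrial DNA, fell by 0.54 ± 0.12 there. Both calls were lost without replicate A or B of WT in glucose (adjusted p = 0.0519 and 0.0719 for MNP1, 0.071 and 0.0505 for MHR1), and that of MHR1 without replicate A of brr6-1 in glucose (0.0513). EHD3, known also as a hydrolase of valine breakdown, was higher in brr6-1 by 1.00 ± 0.17 in glucose and 0.73 ± 0.15 in galactose, where it missed the threshold without either brr6-1 library (0.0508 and 0.0546). With library totals alone, 4 of the 13 rose and none fell in glucose. Without replicate A or B of WT in glucose none fell there, and 6 rose with galactose in brr6-1 and 2 in WT. The number that fell in glucose was 1 without replicate A of brr6-1 there. With galactose, 3 rose in brr6-1 without replicate A of brr6-1 in galactose, 6 without replicate B there and 6 without replicate A of brr6-1 in glucose, while in WT 5 rose without either galactose library of WT.

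On chromosome III lie MRPL32 and, outside the name rule, IMG1 and IMG2, all of the large subunit. MRPL32, which the mitochondrial AAA protease matures, had 126 and 143 CPM in brr6-1, against 94.7 and 98.6 CPM in WT, in glucose. In galactose it had 180 and 197 CPM in brr6-1, against 83.7 and 97.3 CPM in WT. Its changes were 0.47 ± 0.13 and 1.06 ± 0.13, and those of IMG2 0.93 ± 0.15 and 1.20 ± 0.14, all called. The first was lost without replicate A or B of WT or replicate B of brr6-1 in glucose (adjusted p = 0.171, 0.131 and 0.0631). IMG1 changed by 0.45 ± 0.23 in glucose and -0.02 ± 0.22 in galactose, which did not pass. Of 176 tested genes with IDs of chromosome III, 146 were higher in brr6-1 in glucose (median 1.19) and 137 in galactose (median 1.03). The high values of MRPL32 and IMG2 therefore cannot be told apart from that of their chromosome.

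Other parts of mitochondrial gene expression were counted in the same fit, in lists whose headings fit some genes only loosely. For comparison, 16.7% of all genes rose and 19.5% fell in brr6-1 in glucose. With galactose 8.75% of all genes rose and 7.26% fell in brr6-1, and 24.3% rose and 20.5% fell in WT. RFS1 stands in the list of translation factors but is not known as one. MAM33 stands both in the assembly list and in that of activators of single messages. COA1 and CCM1, also in the list of activators, are not known chiefly as activators. Of 21 genes for assembly and rRNA modification of the mitochondrial ribosome, 3 rose and 4 fell in brr6-1 in glucose, while with galactose 10 rose in brr6-1, and 7 rose and 3 fell in WT. RPM2, the protein of mitochondrial RNase P, rose most, by 2.01 ± 0.15 in brr6-1 and 2.76 ± 0.16 in WT. Of 13 genes in the list of translation factors, TUF1 and RFS1 fell and MEF2 rose in brr6-1 in glucose. With galactose 6 of the 13 rose in brr6-1 and 5 in WT. TUF1, the elongation factor that delivers tRNA, had 491 and 579 CPM in brr6-1, against 833 and 886 CPM in WT, in glucose (-0.68 ± 0.14), and 963 and 936 CPM in brr6-1, against 1095 and 1044 CPM in WT, in galactose (-0.17 ± 0.14, not called). The fall of TUF1 in glucose missed the threshold without WT replicate B (adjusted p = 0.0582), that of RFS1 without WT replicate A (0.0513), and the rise of MEF2 without WT replicate A or B or brr6-1 replicate A (0.137, 0.106 and 0.0719).

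Of 13 aminoacyl-tRNA synthetases of mitochondria, 11 rose with galactose in brr6-1 and 7 in WT, against 8.75% and 24.3% of all genes. Between strains, 36.2% of all genes were called in glucose, and 8.29% rose in brr6-1 in galactose. Among 20 activators of single mitochondrial messages none was called in brr6-1 in glucose, 4 rose in galactose (AEP2, PET309, SOV1 and AEP3, none of them called without replicate A of brr6-1 in galactose), and with galactose 7 rose in brr6-1 and 8 in WT. HAP4, the activating subunit of the respiratory regulator that glucose represses, rose with galactose by 2.72 ± 0.21 in brr6-1 and 2.57 ± 0.21 in WT and was not called between strains. PUF3, whose protein binds messages for mitochondrial proteins including many of the mitochondrial ribosome, rose by 0.78 ± 0.12 in brr6-1 and 1.08 ± 0.12 in WT. HAP1, a haem-responsive activator, had 138 and 126 CPM in brr6-1, against 429.5 and 534 CPM in WT, in galactose, a change of -1.86 ± 0.15. In glucose it changed by -0.61 ± 0.14, and was not called without WT replicate A or B (adjusted p = 0.0567 and 0.0585).

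Set beside the members were the proteins of the cytosolic ribosome and the respiratory chain. Over all genes 19.5% fell and 16.7% rose in brr6-1 in glucose, and 14.3% fell and 8.29% rose in galactose. With galactose 7.26% of all genes fell and 8.75% rose in brr6-1, and 20.5% fell and 24.3% rose in WT. In brr6-1 in glucose 94 of 137 cytosolic ribosomal protein genes fell and 1 rose (median -0.58), and in galactose 40 fell and 4 rose (median -0.31). With galactose 29 fell in brr6-1 and 108 in WT, and none rose in either, whereas none of the 66 members fell. These counts rest on few libraries too. In brr6-1 in glucose 50 and 36 cytosolic genes fell without WT replicate A or B. In galactose 1 and 7 fell without replicate A or B of brr6-1 there, 69 and 8 without replicate A or B of WT there, and 19 without either glucose library of WT. With galactose in brr6-1, 2 to 71 fell with 1 library left out, the fewest without replicate A of brr6-1 in galactose and the most without replicate B of WT in galactose. With library totals alone more cytosolic genes rose than fell in brr6-1 in galactose (19 and 12), and more respiratory genes rose than fell in glucose (7 and 3). Of 39 genes of the respiratory chain and ATP synthase, 11 fell and 5 rose in brr6-1 in glucose and 9 rose in galactose. With galactose 38 of these rose in brr6-1 and all 39 in WT, with medians of 2.10 in brr6-1 and 1.81 in WT, against 0.63 and 0.26 for the members in the same strains. Those counts held at 38 or 39 with any 1 library left out. Between strains in glucose 4 respiratory genes fell without replicate A or B of WT or replicate A of brr6-1, and in galactose 2 rose without replicate B of WT or either library of brr6-1, 5 without either glucose library of WT and 18 without replicate A of WT. More members fell than rose in brr6-1 in glucose, as with cytosolic ribosomal proteins, other than with library totals alone, where 9 members rose and 7 fell, and with galactose those that were called went in the direction of the respiratory genes by a smaller amount. No test compared these lists with one another.

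**Figure D5:**
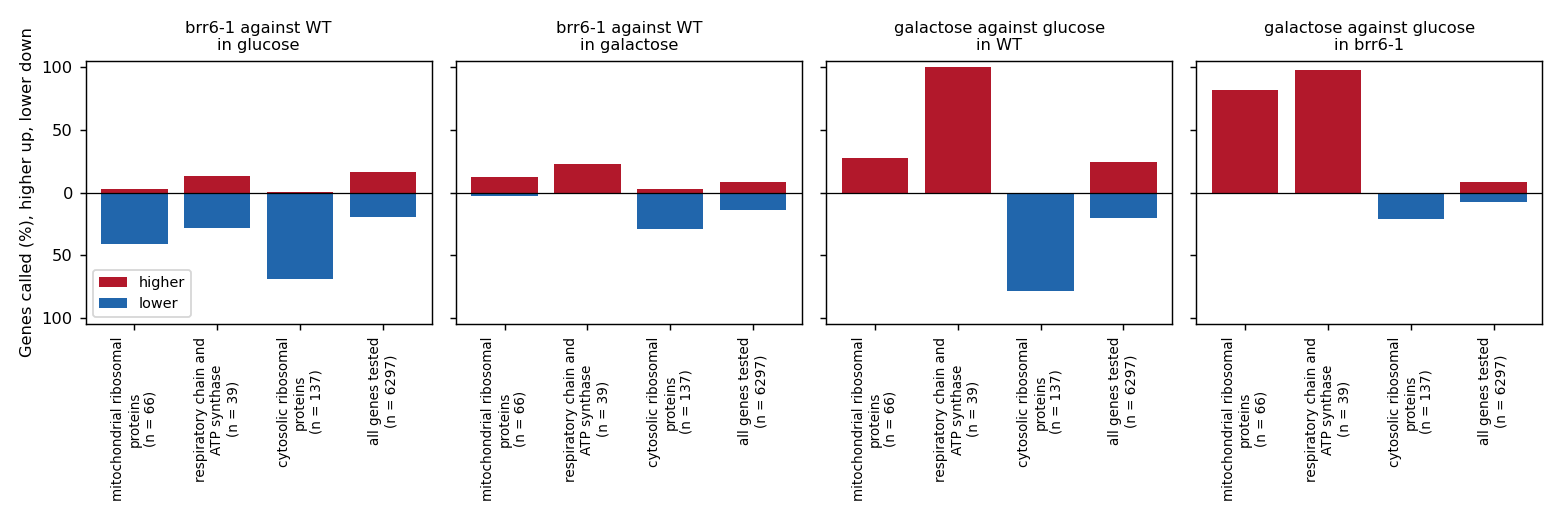
Percentage of genes called higher (red, upward) and lower (blue, downward) in each comparison for the 66 members, 39 genes of the respiratory chain and ATP synthase, 137 cytosolic ribosomal protein genes and all 6297 genes tested. With galactose in brr6-1, 54 of 66 members rose and none fell, while 29 cytosolic ribosomal protein genes fell.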

How the data were processed

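Per the labels' protocols, directional libraries of RNA freed from ribosomal RNA were read from 1 end. Each library has 1 deposited file of raw counts over open reading frames, made by the authors with cutadapt, TopHat and HTSeq on R64, per the submitters' processing notes. No source used here gives the strand setting of HTSeq. Its total lines, which name no gene, were left out. Uniquely placed reads fell outside genes in 23.4 to 37.5% of cases, and ambiguous reads were at most 0.0890% of all lines. Non-unique alignments were 65.3 and 63.3% in brr6-1 in glucose, against 53.5 to 57.4% in the other libraries. The part of this difference in the results was not tested. Libraries A and B of 1 group differed by more than sampling noise (chi-square over degrees of freedom of 10.2 to 87.9). Of 6572 IDs, 5898 matched the RefSeq gene table of R64, which gave names, positions and lengths.

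Genes that passed edgeR's filterByExpr (minimum count 10) were scaled by TMM and fitted with edgeR's quasi-likelihood method in 1 model of 8 libraries and 4 groups, with 4 residual degrees of freedom, Benjamini-Hochberg adjustment within each of 5 comparisons and a threshold of 0.05. Dividing the size of the log2 fold change by the root of F gave the SE. The members, gene lists and tests were chosen with earlier results of these data known. The genes named are, per comparison, up to 8 called members each way whose libraries do not overlap (up to 5 for the difference), the 3 highest and 3 lowest in level, the 3 most abundant never called, MRP8, BRR6, ribosomal proteins outside the name rule, and up to 3 called and 2 other genes of each further list. MRPL10, MRPL31, the 8 members never called, AEP3 (the last of the 4 activators that rose) and STE6 were named after their values were seen, as were HAP4, PUF3 and HAP1 in comparisons where the rule does not reach them. The fit was tested on simulated data. In comparisons of 2 groups, 19.7 to 38.1% of genes changed 1.5-fold were called in the right direction. For the difference it was 9.52%. For 2-fold changes these shares were 74.6 to 78.6% and 55.4%. False calls were 6.25 to 8.84% of calls between 2 groups and 2.86% for the difference.

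Alternatives were DESeq2 size factors, library totals or cyclic loess in limma-voom as scaling, 2 other filters, robust empirical Bayes, DESeq2's Wald test, a replicate block, removal of chromosome III genes, a 1.5-fold minimum, the 4 libraries compared alone, and each library left out. Letters A and B were not taken to pair the samples. Of the ChIP peak table only the gene names were used. Searches for sequence motifs were planned but not run, and no sequence was used here. Tools were edgeR 4.0.16, limma 3.58.1 and DESeq2 1.42.0 in R 4.3.3, and matplotlib 3.10.9, numpy 2.4.6 and pandas 2.3.3 in Python 3.11.15. P-values measure the spread between replicate cultures labelled as biological replicates.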

Additional observations from a re-analysis of the deposited data

Results flagged for a closer look

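For 7 genes the brr6-1 effect differed between galactose and glucose by the test of the difference itself (edgeR's quasi-likelihood test, adjusted over all genes), and each was more positive in galactose. The differences on the log2 scale were 0.89 for RSM28, 0.83 for MRPS17, 0.82 for MRPS35, 0.80 for MRPL7, 0.80 for RSM26, 0.77 for NAM9 and 0.76 for MRPL10. NAM9 lies outside the name rule. Among the others, RSM26, MRPS17 and MRPL10 lost their calls with library totals alone. Each of the 7 lost its call in some setting that left out 1 library.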

How the results depend on the processing

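Counts of members called, higher and lower, are given here under settings that moved them by more than 1.5 times. Library totals alone gave 9 and 7 for brr6-1 against WT in glucose, 16 and 1 in galactose, 46 higher for galactose against glucose in WT and 3 for the difference. Cyclic loess gave 0 higher in glucose and 1 lower in galactose. DESeq2's Wald test gave 1 higher in glucose, 1 lower with galactose in WT and 10 for the difference. DESeq2 size factors gave 1 lower with galactose in WT, and fitting only the 4 libraries compared gave 1 lower there and 35 higher with galactose in brr6-1. A minimum of 1.5-fold left 1 and 16 in glucose and 4 and 1 in galactose. Leaving out 1 library gave 0 to 2 higher and 8 to 35 lower in glucose, 2 to 9 and 1 to 4 in galactose, 7 to 21 and 0 to 2 with galactose in WT, 19 to 59 and 0 with galactose in brr6-1, and 0 to 12 and 0 for the difference. Where that left an arm with 1 library, the lone library was assumed to vary like the other groups. The cause of these shifts was not tested.

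Of the 27 members lower in glucose, 27 were also called with DESeq2 size factors, 21 with cyclic loess and 7 with library totals. Of 68 calls of named members, 22 held in every alternative and 0 reversed. Deviations of same-lettered libraries correlated at -0.0431 to 0.380 between groups, highest between brr6-1 in glucose and WT in galactose. Since not every pair exceeded 0.1 and no label ties the letters to a shared day or batch, A and B were not taken to pair the samples. The fit with a replicate block, as a paired analysis would use, gave 2 and 27 in glucose, 8 and 2 in galactose, 17 higher with galactose in WT, 55 in brr6-1 and 6 for the difference. Scarce members limit detection, since 9 average under 10 CPM. The motif searches were not run.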
